A study of Danio rerio with 45 samples.

Results

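The 150 genes described here are 5-somite-peak transcripts of wild-type (WT) zebrafish embryos, that is, transcripts with a higher signal at the 5-somite stage than at any of 4 other stages. They were chosen by the measured WT values. The normalized signal of each probe was put on the log2 scale, values under 5 were raised to 5, and the 3 WT arrays of a stage were averaged. Each gene was represented by the probe with its highest 5-somite mean, and the excess of a gene was its 5-somite mean minus the highest mean of the other stages. The members are the 150 genes with the largest excess among 13633 genes that a probe could be matched to. In WT, 1876 of the 13633 genes had their highest stage mean at 5-somite, and 231 did so with an excess of at least 1.

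RNA from pools of 20 whole embryos was hybridized to single-colour oligonucleotide arrays, 1 array for each pool, at 5 stages. These were cleavage at 1-2 cell, gastrulation at shield, segmentation at 5-somite, and 1 and 2 days post fertilization (dpf). The 45 arrays cover WT, dnmt3aa-/- and dnmt3bb.2-/- embryos with 3 arrays for each genotype and stage. The methods describe the dnmt3aa-/- embryos as maternal-zygotic mutants, which also lack the maternal product of the gene, and whether the dnmt3bb.2-/- embryos lack the maternal product is not given in the sources used here. Genotype names below stand for the arrays so labelled, and replicates are called biological in the methods. In whole embryos, a change in the number of cells of a type and a change in RNA per cell cannot be told apart.

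Somites are the blocks of mesoderm that form in sequence from the presomitic mesoderm of the tail and give rise to trunk muscle and vertebrae. In the presomitic mesoderm a T-box factor, Tbx6, switches on the Mesp factors that set the next segment border, and the Ripply corepressors end Tbx6 activity there. At the same time the hindbrain is divided into rhombomeres, the eye field and the neural plate border are laid down, and the ciliated Kupffer's vesicle sets the left-right axis. Dnmt3aa and Dnmt3bb.2 belong to the de novo DNA methyltransferases, which add methyl groups to cytosines.

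Most stage markers followed the labels. All 6 shield markers, 3 of 3 matched maternal markers and 6 of 6 markers of the later stages had their highest WT mean at their own stage, and so did 8 of 12 markers of the 5-somite stage, while her1, her7 and foxd3 were highest at shield and myod1 at 1 dpf. The dnmt3bb.2 probe was lower in dnmt3bb.2-/- than in WT at 5-somite, with a log2 difference of -2.68 ± 0.06 (SE, n = 3 and 3, limma adjusted p = 4.77e-06), whereas the dnmt3aa probe was higher in dnmt3aa-/- than in WT by 0.54 ± 0.10 (limma adjusted p = 0.00914). Where either probe lies relative to the lesion is not given, so neither probe checks the genotype. Between 62.4% and 84.6% of the probes were well above background on an array, and 0 spots were saturated. By the scan days in the file headers, the WT and the dnmt3bb.2-/- 5-somite arrays were scanned on another day than all other arrays of these genotypes, so that in both genotypes the 5-somite stage and the scan day cannot be told apart. All 15 dnmt3aa-/- arrays were scanned on 1 day.

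In WT the excess of the members ran from 1.21 to 4.75 on the log2 scale, with a median of 1.72. It was at least 2 in 47 members and at least 4 in 7. The WT signal of 96 members was at the floor at 1-2 cell, and 37 of them were at the floor at shield as well. Only 8 members were at the floor at all 4 other stages. The stage with the second highest mean was 1 dpf in 65 members, shield in 39, 2 dpf in 31 and 1-2 cell in 15. The 3 WT 5-somite arrays differed little, with a median SD of 0.09 over the members. In 149 members they lay above all 12 other WT arrays, which the choice of the members favours. On the arrays of the mutants the same held for 104 members in dnmt3aa-/- (5.69% of all genes) and 117 in dnmt3bb.2-/- (9.2%).

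**Figure D1:**
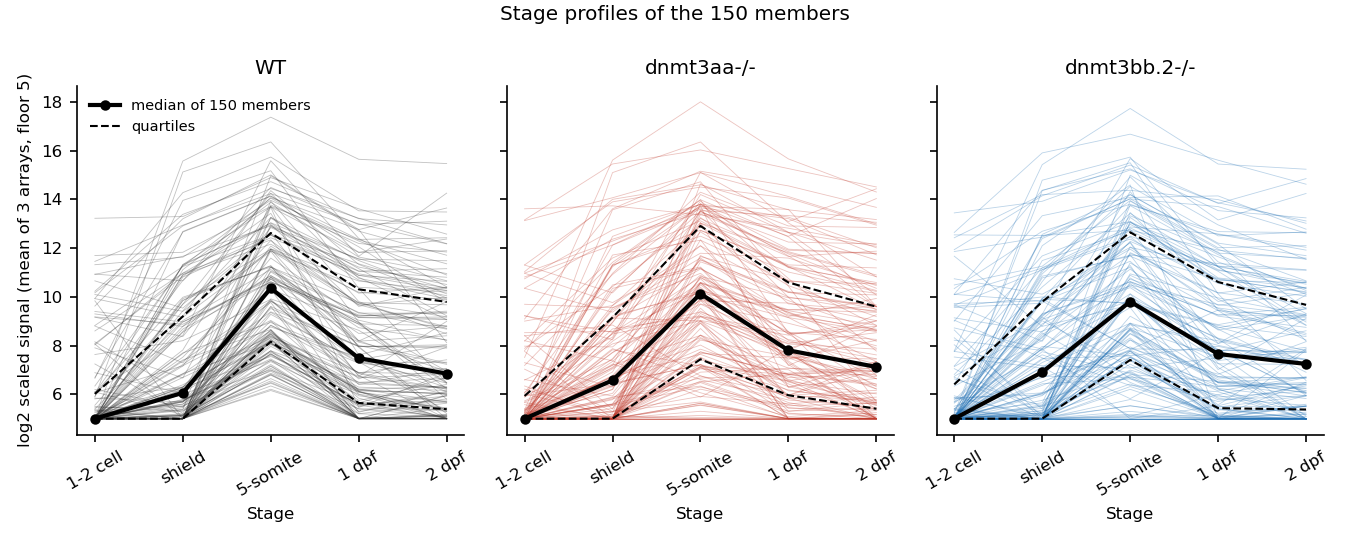
Log2 scaled signal (mean of 3 arrays, values under 5 raised to 5) of each of the 150 members at the 5 stages in WT, dnmt3aa-/- and dnmt3bb.2-/-, as thin lines, with the median as a thick line and the quartiles dashed. The median at 5-somite is 10.36 in WT, where it is high by choice, 10.13 in dnmt3aa-/- and 9.81 in dnmt3bb.2-/-.

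The largest excess belonged to tbx6, which read 13.87, 13.76 and 13.54 on the WT 5-somite arrays against 7.82 ± 0.09 at shield and 8.97 ± 0.13 at 1 dpf (mean ± SD, n = 3). It was followed by camk1gb, a calcium/calmodulin-dependent kinase, with an excess of 4.50 and 5-somite values of 9.41, 9.60 and 9.79. The third was gig2g, of a fish gene family induced by viruses, with an excess of 4.47. Other members with an excess over 3 were egr2b (4.12), a zinc finger factor of alternate rhombomeres, arr3b (4.12), a cone arrestin, pks1 (4.12), a polyketide synthase, mespbb (4.05), dand5 (3.64), a Nodal antagonist of the cells around Kupffer's vesicle, myf5 (3.49), the first myogenic factor, gfi1aa (3.33), a transcriptional repressor of early blood, nceh1a (3.17), a cholesterol ester hydrolase, the transcribed pseudogene wu:fb55f04 (3.03) and nkx1.2la (3.03), a homeobox gene of the tailbud. The keratin krt95 (2.96) and ripply2 (2.94) completed the 15 largest. Genes of the segmenting mesoderm thus stood beside arr3b, better known from the eye, and gig2g, better known from defence.

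Sorted by known function, which was done after the values were seen, the members fell into 16 classes. Those of patterning held 10 genes of mesoderm segmentation and first muscle, 9 of the tailbud and body axis, 9 of the brain and neural plate border, 6 growth factors and their feedback, 5 of Kupffer's vesicle and cilia, 5 of blood, vessel and heart and 8 of the extracellular matrix. The segmentation class had the highest median excess, 2.30, and held tbx6, mespba, mespbb, ripply1, ripply2, myf5, meox1, tcf15, snai1b and dmrt2a. The tailbud and body axis class held cdx1a, cdx4, nkx1.2la and the homeobox cluster genes hoxa9a, hoxb10a, hoxb1a, hoxb1b, hoxb7a and hoxc6b. Of these, hoxb1a and hoxb1b are genes of the hindbrain, placed here with the other homeobox cluster genes. The brain class held egr2b, rx3 and six3b of the eye field and forebrain, her5 of the midbrain-hindbrain boundary, wnt8b, irx1b, msx1a, hnf1bb and crabp2a. The matrix class held the laminin chains lama1 and lamb1a and the fibronectins fn1a and fn1b.

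The remaining classes were of metabolism, of other functions or little known. They held 16 genes of lipid, prostaglandin and steroid metabolism, among them the cyclooxygenase ptgs1, the prostaglandin D synthase ptgdsb.2, the fatty acid receptor cd36 and the gonadal aromatase cyp19a1a. Another 12 members were of sugar, amino acid and energy metabolism, 9 were transporters and channels, 10 receptors and signalling genes, 8 genes of RNA, ribosome and cell death, 7 immune genes and lectins, 6 epithelial and junction genes, 5 phototransduction and lens genes and 25 of other or little known function. The median excess of these classes lay between 1.33 and 1.89.

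The threshold cut a continuous range. The last members were cdx4 (excess 1.22), m1ap (1.21) and oip5-as1 (1.21), and the first genes outside were six4b, ercc8 and hoxd9a, each with an excess of 1.2. Of the members, 85 had 131 other probes, and 104 of the 119 that were above background on all 3 WT 5-somite arrays also had their highest WT mean at 5-somite, with a median excess of 1.32. The other probes of 9 of 77 members all had their highest mean at another stage. For rhol, a rod opsin-like gene, the software marked a WT 5-somite spot as an outlier, and without it the excess was 1.16, which is under the threshold.

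RefSeq listed 148 of the members as protein coding. In its gene order, 5 pairs of members lay within 3 protein-coding genes of each other: tlr21 and cnfn, lamb1a and acot19, hoxb10a and hoxb7a, jac6 and jac9, and jac9 and jac8. The jac genes code for jacalin-like lectins of 1 cluster, and their probes may detect each other's transcripts.

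The mutant arrays were not used in the choice, so the time course can be examined in them, with a limit in dnmt3bb.2-/-. Its 5-somite arrays shared their scan day with the WT 5-somite arrays that chose the members. Its other stages shared the scan day of the other WT stages. Stage and scan day thus cannot be told apart in dnmt3bb.2-/-, and its counts are not independent of the choice in that respect. In dnmt3aa-/-, 130 of the 150 members (86.7%) had their highest stage mean at 5-somite, against 12.1% of all 13633 genes, and the median excess was 1.2. In dnmt3bb.2-/- the same held for 123 members (82%), against 13.1% of all genes, with a median excess of 1.26. The number with the peak in both mutants was 119, against 8.01% of all genes. In dnmt3aa-/- the 5-somite mean was higher than the shield mean in 105 of the 146 members tested (28.7% of all probes were called higher) and higher than the 1 dpf mean in 86 (14.6% of all probes), at an adjusted p of at most 0.01 by limma. In dnmt3bb.2-/- these numbers were 118 of 147 (35.2% of all probes) and 114 (27.7%). Both differences passed in 73 members in dnmt3aa-/- (3.01% of all probes) and in 101 in dnmt3bb.2-/- (8.67%), and 67 members passed in both mutants, against 2.02% of the probes tested in both.

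In dnmt3aa-/- the peak was also seen within slides, whereas no slide held dnmt3bb.2-/- 5-somite arrays with those of another stage. On a slide that held shield and 5-somite arrays of dnmt3aa-/-, 2 of each stage, 136 members were higher at 5-somite, as were 53.9% of all genes. On a slide that held a single 5-somite array and the 3 arrays of 1 dpf, 135 members were higher at 5-somite, as were 46.5% of all genes. With the slide as a block in the fit, 106 members were called higher than at shield and 52 higher than at 1 dpf in dnmt3aa-/-. Of all 39834 probes tested, 11228 and 4127 were called higher in these fits. Among members with a WT 5-somite mean of 12 or more, 44 of 46 peaked at 5-somite in dnmt3aa-/- and 45 in dnmt3bb.2-/-, whereas among those under 8 it was 23 and 20 of 32.

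**Figure D2:**
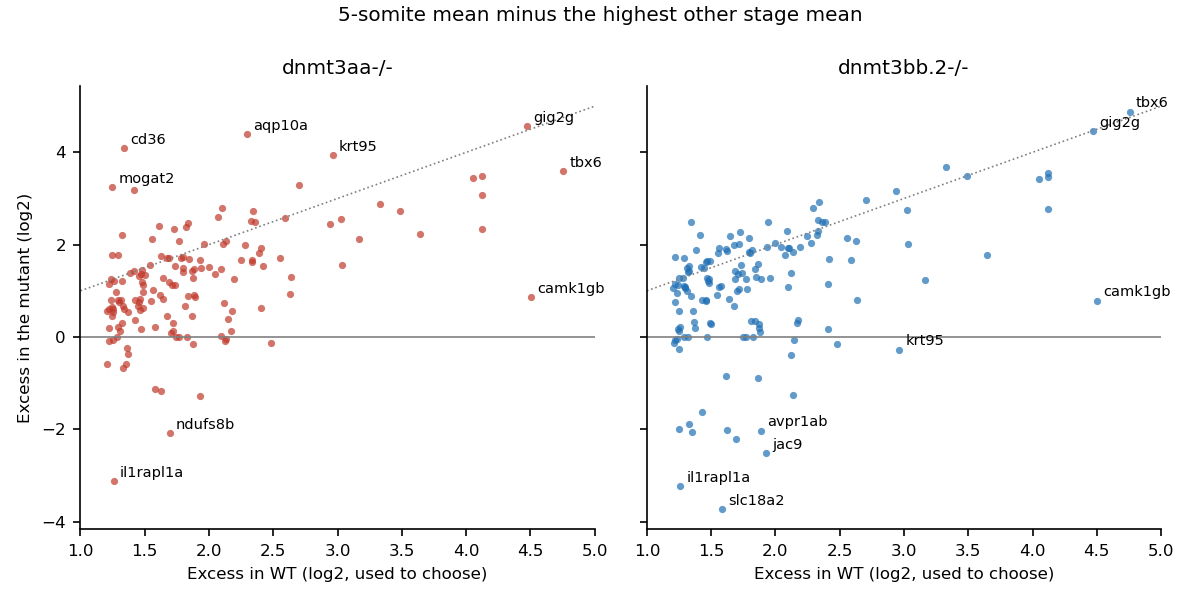
Each point is a member, with its excess in WT (log2, the value that chose it) on the horizontal axis and its excess in dnmt3aa-/- or dnmt3bb.2-/- on the vertical axis. Equal values lie on the dotted line. In dnmt3aa-/- 29 members and in dnmt3bb.2-/- 42 members have a larger excess than in WT, and members under the line at 0 had another stage with a higher mean.

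The segmentation genes were highest at 5-somite in both mutants. On the dnmt3aa-/- arrays tbx6 read 13.69, 13.51 and 13.51 at 5-somite, and it was higher than at shield by 6.38 ± 0.53 (SE, limma adjusted p = 5.52e-07) and than at 1 dpf by 3.59 ± 0.53 (limma adjusted p = 0.000142). On the dnmt3bb.2-/- arrays it read 14.37, 14.42 and 14.18, and the differences were 6.11 ± 0.24 and 4.88 ± 0.24 (limma adjusted p = 3.15e-10 and 3.58e-09). At 5-somite all mutant values of tbx6 lay far above every shield and 1 dpf value. All 10 segmentation genes, all 9 tailbud and body axis genes and all 9 brain genes had their highest stage mean at 5-somite in both mutants. So did all 8 matrix genes and all 5 genes of blood, vessel and heart.

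The classes with fewer peaks in the mutants were others. Of the 7 immune genes and lectins, 2 peaked at 5-somite in dnmt3aa-/- and 2 in dnmt3bb.2-/-. Of the 12 genes of sugar, amino acid and energy metabolism, 9 and 8 did so, and of the 9 transporters and channels 6 and 7. The immune and lectin class was dim, with a median WT 5-somite mean of 7.73. It was 12, 13 and 12.4 in the segmentation, tailbud and brain classes, and dim members peaked less often. The probes of the lectins jac6, jac8 and jac9 may detect each other's transcripts, so these may not be separate results. In all, 16 members peaked at 5-somite in neither mutant: acot19, cnfn, cyb5d1, jac6, jac8, jac9, gzm3.3, cyp19a1a, rhol, ndufs8b, slc18a2, khk, slc10a2, il1rapl1a, dffa and m1ap. The WT 5-somite mean of 8 of them was under 8.

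The clearest of these was il1rapl1a, a receptor-like protein of synapses. It read 10.62, 10.61 and 10.63 on the WT 5-somite arrays, 6.17, 5.71 and 5.77 in dnmt3aa-/- and 6.07, 5.71 and 5.68 in dnmt3bb.2-/-. In both mutants 5-somite was thus the stage with its lowest mean, while at 1-2 cell its means were 8.15 ± 0.05, 8.20 ± 0.09 and 9.04 ± 0.09 in the same order (SD, n = 3). At 5-somite the log2 difference from WT was -4.74 ± 0.14 in dnmt3aa-/- (SE, limma adjusted p = 6.56e-05) and -4.80 ± 0.11 in dnmt3bb.2-/- (limma adjusted p = 6.29e-06). A second probe gave differences of -5.04 in dnmt3aa-/- and -4.42 in dnmt3bb.2-/-.

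The 5-somite signal of camk1gb was also much lower in both mutants, although its highest stage mean stayed at 5-somite. Its values were 6.18, 5.73 and 7.71 in dnmt3aa-/- and 5.86, 5.73 and 5.77 in dnmt3bb.2-/- at 5-somite, all under the 3 WT values. The log2 differences from WT were -3.06 ± 0.52 (SE, limma adjusted p = 0.00751) and -3.81 ± 0.11 (limma adjusted p = 9.66e-06). The excess, 4.50 in WT, where it was large by choice, was 0.87 and 0.79 in the mutants.

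**Figure D3:**
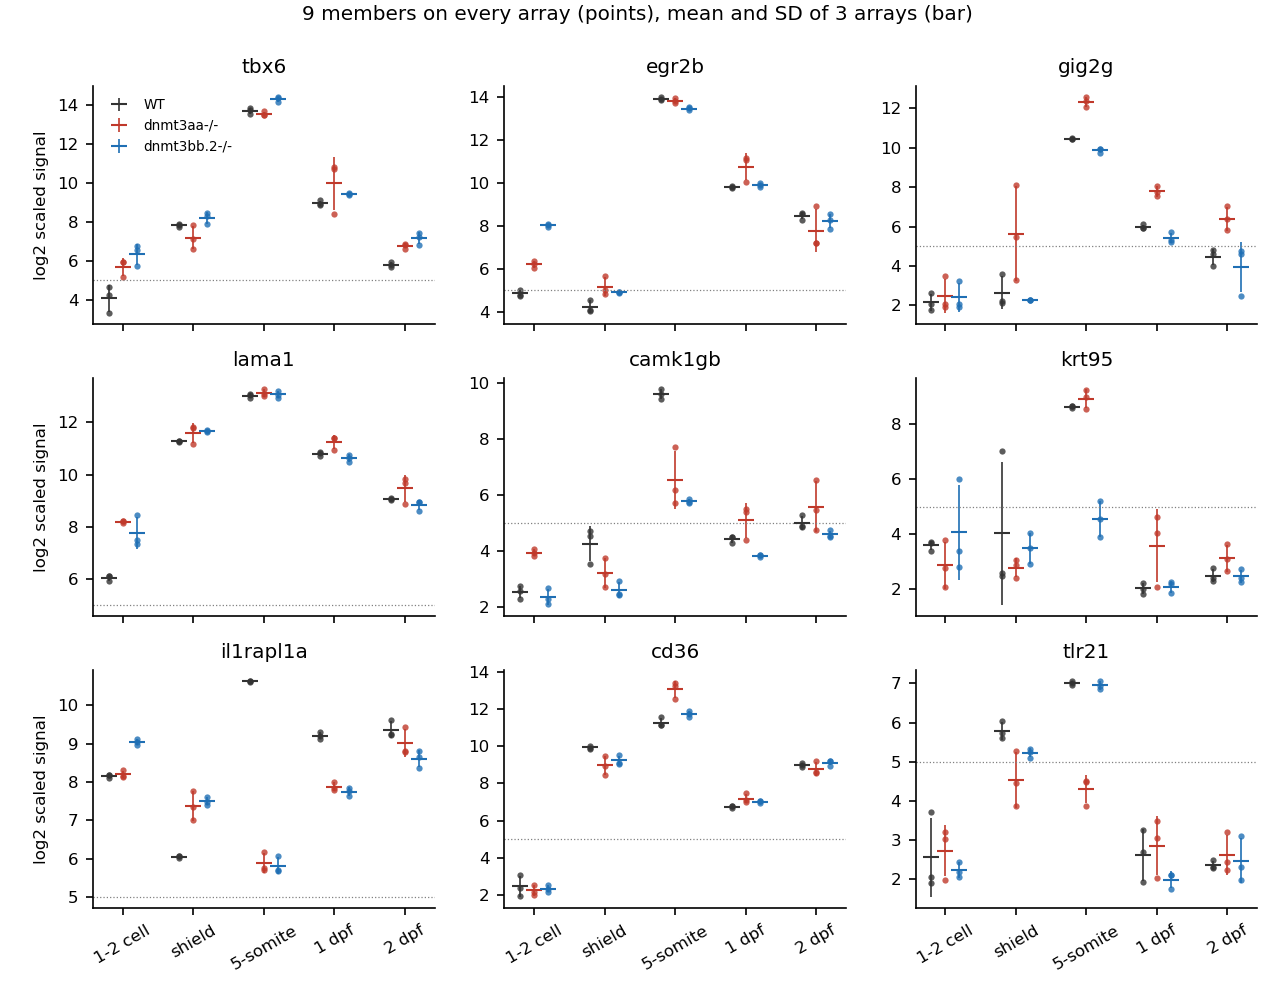
Log2 scaled signal of 9 members on every array, with the mean and SD of 3 arrays, at the 5 stages in WT (black), dnmt3aa-/- (red) and dnmt3bb.2-/- (blue). The dotted line marks the floor of 5 used in the choice. tbx6, egr2b and lama1 are highest at 5-somite in all genotypes, il1rapl1a is high at 5-somite in WT only, krt95 is near background in dnmt3bb.2-/- and tlr21 in dnmt3aa-/-.

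At 5-somite the mutants were compared with WT directly. The same WT arrays chose the members for a high signal, so a surplus of members under WT is built into these comparisons, and the members' share is set beside that of all probes without a test. In dnmt3aa-/- 31 members were lower than WT (11.5% of all probes tested were called lower) and 11 were higher (9.82% of all probes), and the median difference was -0.31 over the members and -0.05 over all probes. In dnmt3bb.2-/- 64 members were lower (18.9% of all probes) and 24 higher (16.9% of all probes), with medians of -0.35 and -0.02.

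These counts depend on single arrays. Without dnmt3aa-/- 5-somite replicate 3 the number called in dnmt3aa-/- was 87 in place of 42, without replicates 1 or 2 of that group it was 21 and 20, and without a WT array it was 11 to 14. The calls over all probes moved in the same way. They were 13819 of 35236 in place of 7566 of 35498 without replicate 3, 3377 and 3850 without replicates 1 or 2, and 1932 to 2654 without a WT array. The dnmt3aa-/- 5-somite replicates 1 and 2 lay on 1 slide and replicate 3 on another, so replicate 3 and its slide cannot be told apart. No slide held 5-somite arrays of different genotypes, and with the slide as a random block 5 members were called in dnmt3aa-/-, namely cyp19a1a, gzm3.3, m1ap, il1rapl1a and ugt5a4. Over all probes 378 of 35498 were called with that block. The calls of the other members in dnmt3aa-/- against WT at 5-somite were lost with that block. The dnmt3aa-/- and WT arrays were scanned on different days, so that scan day and genotype cannot be told apart. In dnmt3bb.2-/-, where each group lay on a slide of its own, slide and genotype cannot be told apart.

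**Figure D4:**
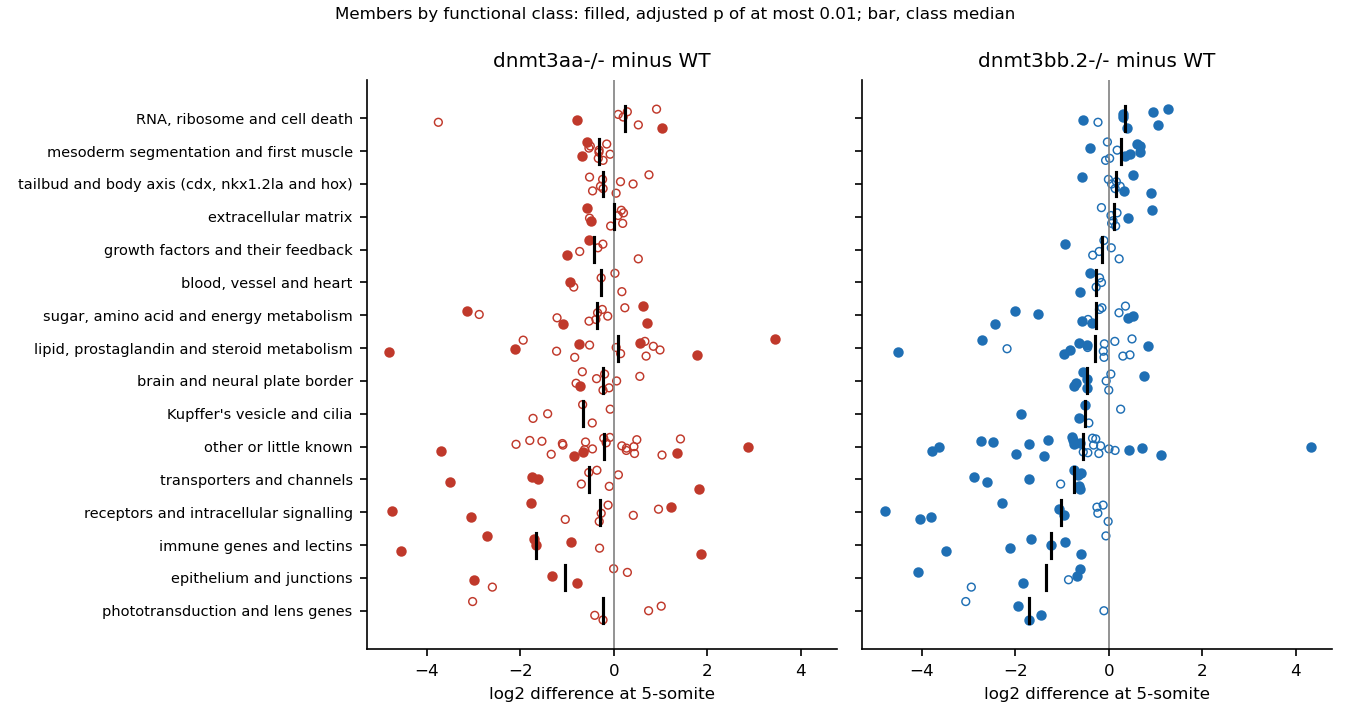
Log2 difference of each mutant from WT at 5-somite for the 150 members, sorted by functional class, filled where limma's adjusted p was at most 0.01, with the class median as a black bar. In dnmt3bb.2-/- the class medians run from -1.70 (phototransduction and lens) to 0.36 (RNA, ribosome and cell death), and in dnmt3aa-/- from -1.66 (immune genes and lectins) to 0.25 (RNA, ribosome and cell death).

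Other probes of a gene can differ. Of 63 other probes of members called in dnmt3bb.2-/-, 53 had the same sign and 8 were called in the opposite direction, and of 25 in dnmt3aa-/-, 23 and 0. Of the 10 segmentation genes, 2 were lower (11.5% of all probes) and 0 higher (9.82%) in dnmt3aa-/-. In dnmt3bb.2-/- 5 were higher (16.9% of all probes) and 1 lower (18.9%). In dnmt3aa-/- mespba (-0.67 ± 0.08, SE, limma adjusted p = 0.00222) and tcf15 (-0.56, limma adjusted p = 0.00529), a factor of somite epithelia, passed. Another mespba probe gave -0.52 and did not pass (limma adjusted p = 0.0124). In dnmt3bb.2-/- tbx6 (0.60), mespbb (0.46), mespba (0.35), myf5 (0.68) and snai1b (0.67), a factor of epithelial to mesenchymal transition, were higher and ripply2 (-0.39) was lower. Other ripply2 probes gave -0.21 and -0.14 and were not called. For myf5 the probes disagreed, since 1 other probe also gave a higher value in dnmt3bb.2-/- (0.74, limma adjusted p = 0.000678) and another a lower one (-1.08, limma adjusted p = 7.44e-05), so the direction of myf5 is uncertain. A second tbx6 probe was also higher in dnmt3bb.2-/- (0.54) and was lower in dnmt3aa-/- (-0.63, limma adjusted p = 0.00309), where the first did not pass. Of the 9 tailbud and body axis genes, 0 passed in dnmt3aa-/- in either direction. In dnmt3bb.2-/- cdx1a (0.91), cdx4 (0.33) and nkx1.2la (0.52) were higher and hoxc6b (-0.56) lower. Other cdx1a probes gave 0.67, which was called, and -0.05, which was not. Another cdx4 probe gave 0.27 and was not called.

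Of the 9 brain genes, her5 was lower in dnmt3aa-/- (-0.73, limma adjusted p = 0.00498), and 5 were lower (18.9% of all probes) and 1 higher (16.9%) in dnmt3bb.2-/-. The lower ones were egr2b (-0.47), her5 (-0.74), msx1a (-0.46), hnf1bb (-0.71) and wnt8b (-0.55), and the higher one was rx3 (0.76). Another msx1a probe gave -0.18 in dnmt3bb.2-/- and was not called. A second hnf1bb probe was lower in dnmt3aa-/- as well (-1.11, limma adjusted p = 0.0015). The probe of crabp2a passed in neither mutant, but 3 of its 4 other probes were called higher in both, by 1.01, 1.59 and 1.54 in dnmt3aa-/- and by 0.77, 1.60 and 1.15 in dnmt3bb.2-/-. The egr2b values were 13.93, 14.01 and 13.85 in WT and 13.52, 13.38 and 13.49 in dnmt3bb.2-/-. Of the genes of Kupffer's vesicle, dand5 was lower in dnmt3bb.2-/- (-1.87 ± 0.09, SE, limma adjusted p = 4.20e-05), with values of 6.83, 6.62 and 6.86 against 8.71, 8.66 and 8.56 in WT. In dnmt3aa-/- its difference of -1.41 ± 0.34 did not pass (limma adjusted p = 0.0213), and 1 of its 3 arrays read 8.0. The ciliary factor foxj1b gave -0.07 and 0.26 and passed in neither mutant. The laminin gene lama1 gave 0.09 and 0.05, and neither passed. The probe of fn1a gave 0.19 and 0.06 without passing, whereas a second fn1a probe was lower in dnmt3aa-/- (-1.20, limma adjusted p = 0.0054), so fn1a is uncertain. In the same mutant fn1b was lower (-0.48, limma adjusted p = 0.00865). The vascular growth factor receptor kdr was lower in dnmt3aa-/- (-0.93 ± 0.11, SE, limma adjusted p = 0.00217), but both of its other probes had the opposite sign (0.53 and 0.39, not called), so the direction rests on a single probe.

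The named members of the other classes follow. In dnmt3aa-/- the 4 lowest fitted differences past the test were those of cyp19a1a, il1rapl1a, gzm3.3, a granzyme, and m1ap, a gene of meiosis. The mutant values of cyp19a1a, gzm3.3 and m1ap were under background, so these 3 differences are bounds and their place in that order is not known. The probe of cyp19a1a read 6.98, 6.72 and 6.71 in WT and was well above background on 0 mutant arrays at 5-somite. Set against the lowest signal called above background, cyp19a1a was at least 9.78-fold higher in WT than in dnmt3aa-/- (limma adjusted p = 5.17e-05) and at least 9.24-fold higher than in dnmt3bb.2-/- (limma adjusted p = 8.96e-05). By the same measure gzm3.3 was at least 9.96-fold and at least 8.61-fold higher in WT, and m1ap at least 6.48-fold and at least 6.12-fold. The WT means of cyp19a1a, gzm3.3 and m1ap were 6.80, 6.83 and 6.21.

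The highest 4 in dnmt3aa-/- were ugt5a4, a glucuronosyltransferase, si:dkey-122c11.1, gig2g and aqp10a, a water and glycerol channel. For ugt5a4 the values were 10.13, 10.26 and 10.79 in dnmt3aa-/- against 6.72, 7.04 and 7.08 in WT, a difference of 3.45 ± 0.21 (SE, limma adjusted p = 0.00037). For gig2g they were 12.57, 12.38 and 12.07 against 10.45, 10.49 and 10.46, a difference of 1.88 ± 0.14 (limma adjusted p = 0.000637). For aqp10a they were 10.13, 10.71 and 9.83 against 8.30, 8.33 and 8.59, a difference of 1.82 ± 0.24 (limma adjusted p = 0.00344). In ugt5a4, gig2g and aqp10a the groups did not overlap, which is nearly fixed by naming the largest differences past the test. The next was cd36, at 13.21, 13.41 and 12.55 against 11.14, 11.12 and 11.54 (1.79 ± 0.25, SE, limma adjusted p = 0.00433). Among 20 tested genes of later differentiation, 4 were higher (9.82% of all probes) and 0 lower (11.5%) in dnmt3aa-/- at 5-somite, with a median difference of 0.83. In dnmt3bb.2-/- 4 of 16 were higher (16.9%) and 4 lower (18.9%), with a median of -0.15. The means of hbae1.1 (a globin), apoa1a and apoa2 (apolipoproteins), which are highest at 2 dpf in WT, were 10.42, 15.67 and 13.58 in WT. They were 11.76, 17.09 and 15.23 in dnmt3aa-/- and 11.61, 15.91 and 13.86 in dnmt3bb.2-/-. Those of mylpfa, ckma and pvalb2, near the floor of 5, were 5.15, 5.32 and 5.94 in WT. They were 5.91, 6.64 and 6.81 in dnmt3aa-/- and 4.92, 6.63 and 5.88 in dnmt3bb.2-/-. The mean of cryaa was not above the floor in any genotype. The part of these genes in the results was not tested.

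In dnmt3bb.2-/- the 4 lowest fitted differences were those of il1rapl1a, cyp19a1a, krt95 and avpr1ab, a vasopressin receptor. The order is not known for cyp19a1a, which was under background, and is loose for krt95 and avpr1ab, each above background on 1 of 3 arrays. On the WT 5-somite arrays krt95 read 8.65, 8.68 and 8.60, in dnmt3aa-/- 9.00, 8.55 and 9.25, and in dnmt3bb.2-/- 3.90, 4.56 and 5.20, with 1 of these 3 arrays above background. The difference of dnmt3bb.2-/- from WT was -4.09 ± 0.32 (SE, limma adjusted p = 0.000259). The avpr1ab probe read 8.53, 8.45 and 8.71 in WT and 5.31, 3.99 and 4.29 in dnmt3bb.2-/- (-4.03 ± 0.34, SE, limma adjusted p = 0.000358). At shield the order of avpr1ab was turned, with 7.13 ± 0.18 in dnmt3bb.2-/- and 2.31 ± 0.05 in WT (SD, n = 3), the latter not well above background on any array. Of the transporters and channels 8 of 9 were lower, of the immune genes and lectins 6 of 7, of the receptors 6 of 10 and of the phototransduction genes 3 of 5. Of all 150 members 64 were lower, beside 18.9% of all probes, and the choice by the same WT arrays favours lower mutant values. The classes were drawn up after the values were seen, and these shares were not tested against each other. The cone arrestin arr3b gave -1.70 (limma adjusted p = 4.09e-05).

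The highest 4 in dnmt3bb.2-/- were si:dkey-122c11.1 (4.32), tma7 (1.27), a translation-associated gene, ahsg1 (1.13), a fetuin, and dffa (1.06), an inhibitor of the nuclease of apoptosis. Other ahsg1 probes, near the floor in WT (5.20 and 5.16), gave 0.78 and 0.66 and were not called. Of the class of RNA, ribosome and cell death, 6 of 8 were higher, beside 24 of all 150 members and 16.9% of all probes. This share was not tested. The gene si:dkey-122c11.1 read 11.75, 11.66 and 11.72 in dnmt3bb.2-/-, 10.35, 10.53 and 9.88 in dnmt3aa-/- and 7.33 and 7.44 in WT, where the spot of replicate 2 was marked as an outlier and left out of the fit. It was called higher at 4 stages in each mutant.

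The direct comparison of the mutants used no array that chose the members. The dnmt3bb.2-/- 5-somite arrays, unlike those of dnmt3aa-/-, shared their scan day with the WT 5-somite arrays that did. In that respect this comparison is not independent of the choice. At 5-somite 24 members were higher (10.1% of all probes) and 17 lower (10.4% of all probes) in dnmt3aa-/- than in dnmt3bb.2-/-, of 145 tested, and the median difference was 0.01 over the members and -0.02 over all probes. Of the segmentation genes 5 were lower and 0 higher in dnmt3aa-/-, with a median of -0.54: tbx6 (-0.75, limma adjusted p = 0.00403), myf5 (-0.995), mespba (-1.02), tcf15 (-0.53) and snai1b (-1.17). For myf5 the other probes gave -1.11 and 0.78, which have opposite signs. Of the matrix genes fn1b and mfge8b were lower too. The probe of itih3b.1 was lower (-0.93), but its 3 other probes had the opposite sign (1.64, 0.61 and 0.58), so its direction is uncertain. Of the 16 lipid genes 4 were higher and 0 lower, with a median of 0.51, namely ugt5a4 (2.95), hnf4b (1.82), a nuclear receptor, cd36 (1.33) and ptgdsb.2 (1.2).

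The members with the largest difference between the mutants were krt95 (4.38 ± 0.36, SE, limma adjusted p = 0.000859), si:dkey-217m5.8 (4.07 ± 0.19, limma adjusted p = 0.000161), avpr1ab (2.99 ± 0.48, limma adjusted p = 0.00597) and pde6c (2.97 ± 0.39, limma adjusted p = 0.00322), the cone phosphodiesterase, all higher in dnmt3aa-/-. In dnmt3bb.2-/- krt95 and avpr1ab were above background on 1 of 3 arrays, so both sizes are uncertain. The pde6c values were 10.42, 10.58 and 9.15 in dnmt3aa-/- and 7.09, 7.08 and 7.08 in dnmt3bb.2-/-, and the WT values of 9.00, 8.92 and 9.17 overlapped those of dnmt3aa-/-. On the lower side were tlr21 (-2.66 ± 0.19, limma adjusted p = 0.000607), a toll-like receptor, si:dkey-122c11.1 (-1.46 ± 0.18, limma adjusted p = 0.00271), snai1b (-1.17 ± 0.16, limma adjusted p = 0.00371) and niban1a (-1.06 ± 0.16, limma adjusted p = 0.00527). For tlr21 the values were 4.52, 3.88 and 4.48 in dnmt3aa-/- and 6.94, 7.06 and 6.84 in dnmt3bb.2-/-, the latter overlapping WT (7.01, 7.06 and 6.97). Its neighbour in the gene order, cnfn, read 5.16, 3.65 and 3.85 in dnmt3aa-/- against 7.14, 6.97 and 7.57 in WT (-3.00, limma adjusted p = 0.00447). With the slide as a random block 3 members were called between the mutants, namely si:dkey-217m5.8, gig2g and ugt5a4. Without single arrays it was 12 to 72, the 72 without dnmt3aa-/- 5-somite replicate 3, which lay on another slide than replicates 1 and 2. Over all probes 800 of 35582 were called with that block, and 2127 to 12069 without single arrays. The 5-somite arrays of the mutants were scanned on different days. Of 20 genes of later differentiation, 6 were higher (10.1% of all probes) and 0 lower (10.4%) in dnmt3aa-/- than in dnmt3bb.2-/-, with a median of 0.90. The part of these differences in the results was not tested.

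The other stages are given with the share of all probes called in parentheses. In dnmt3aa-/- 20 members were higher (28.5% of all probes) and 21 lower (28.8%) than WT at 1-2 cell, of 85 tested. At shield 8 of 121 tested were higher (6.59%) and 2 lower (5.68%), and at 1 dpf 20 of 145 were higher (11%) and 9 lower (9.81%). At 2 dpf 12 of 132 were higher (5.69%) and 6 lower (6.90%). In dnmt3bb.2-/- 18 of 83 tested were higher (15.1%) and 15 lower (16.3%) at 1-2 cell, and 47 of 119 higher (27.4%) and 21 lower (24.1%) at shield. At 1 dpf 39 of 142 were higher (22.8%) and 38 lower (24.1%), and at 2 dpf 11 of 134 were higher (6.31%) and 10 lower (8.61%). The median difference in dnmt3aa-/- at 1 dpf was 0.26 over the 145 members tested and -0.01 over all probes, and in dnmt3bb.2-/- at shield 0.27 over the 119 tested and 0.03. The WT arrays of these stages also entered the choice, which took genes with low WT values there. WT and dnmt3bb.2-/- arrays shared a slide at each of these stages, and within it all 33, 68, 77 and 21 called members kept their sign. The arrays of that slide are part of those that made the calls. Their sign was thus nearly fixed beforehand, and this count is no test of the slide. With the slide as a block 20, 49, 56 and 5 members were called. Over all probes these fits called 5633 of 31992, 10466 of 33335, 11946 of 37835 and 1289 of 38573.

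**Figure D5:**
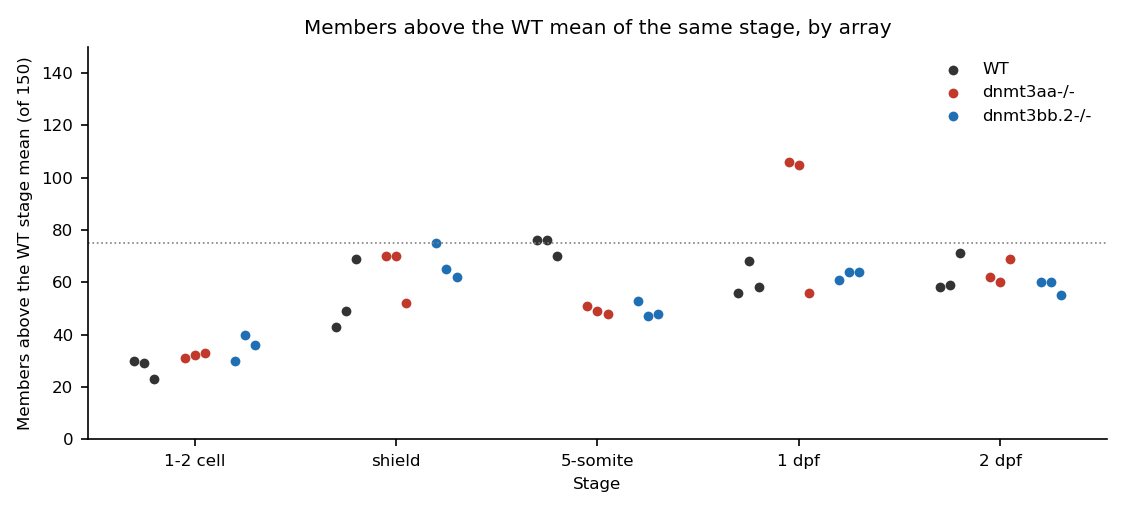
Number of the 150 members with a signal above the WT mean of the same stage (values under 5 raised to 5), for each of the 45 arrays. The dotted line marks 75 members. At 5-somite the mutant arrays lie between 47 and 53, and at 1 dpf dnmt3aa-/- replicates 1 and 2 lie at 106 and 105 and replicate 3 at 56.

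At 1 dpf the dnmt3aa-/- arrays differed among themselves. On replicates 1 and 2, 106 and 105 members were above the WT mean, and on replicate 3 it was 56, near the 56 to 68 of the WT arrays. The tbx6 values were 10.72, 10.82 and 8.42 against 9.11, 8.94 and 8.85 in WT, and the mespbb values 8.0, 8.31 and 5.60 against 6.71, 6.72 and 6.89. Without replicate 3 the number of members called at 1 dpf was 81 in place of 29, without replicate 2 it was 17, and without a WT array 12 to 15. The number of all probes called was 16170, 4036 and 2410 to 2603 in that order, in place of 7873.

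Some members differed from WT at most stages. In dnmt3aa-/- bcas2, a component of the spliceosome, was called higher at all 5 stages. In dnmt3bb.2-/- 3 members were higher at all 5, among them the splicing factor srsf1a and tma7, and ankrd16 was lower at all 5. The share of all probes called at all 5 stages was not counted, so whether these numbers are unusual was not tested. For jac9 the means were 9.17 at shield and 6.64 at 5-somite in dnmt3bb.2-/- and 6.39 and 8.32 in WT.

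The other genes of the same pathways are given from lists written from general knowledge. In dnmt3aa-/- 9.82% of all probes were called higher and 11.5% lower, and in dnmt3bb.2-/- 16.9% and 18.9%, and the counts below are to be read beside these shares. Of 44 genes of the segmentation clock, presomitic mesoderm and tailbud on the array, 8 were members. Of the other 36, 13 had their highest WT mean at 5-somite, beside 13.8% of all genes. Of the 35 others tested, 2 were higher and 4 lower in dnmt3aa-/-, with a median of -0.16, and 10 were higher and 5 lower in dnmt3bb.2-/-, with a median of 0.17. Of the 19 other genes of early myogenesis in dnmt3aa-/- 1 was higher and 2 lower, and of 17 in dnmt3bb.2-/- 5 were higher and 2 lower. Of 47 hox genes 6 were members, and of 39 others tested 0 were higher and 11 lower in dnmt3aa-/-, with a median of -0.36, and 4 higher and 7 lower in dnmt3bb.2-/-. Of 19 other genes of midbrain and hindbrain, 10 peaked at 5-somite in WT, and 3 were lower in dnmt3aa-/- and 5 in dnmt3bb.2-/-, with 0 higher in each. Of 29 genes of neurogenesis 0 were members, and the same held for 11 genes of the hatching gland and 38 ephrins, cadherins and guidance genes. Since 150 of 13633 genes are members, 0 in lists of this size is no result about these genes. In the same order 5, 0 and 15 of them had their highest WT mean at 5-somite, beside 13.8% of all genes. Of 28 other genes of forebrain and eye field, 0 were higher and 5 lower in dnmt3aa-/-, and 1 higher and 8 lower in dnmt3bb.2-/-. Of 23 other genes of notochord, floor plate and Kupffer's vesicle tested, 0 were higher and 3 lower in dnmt3aa-/-, and 1 higher and 9 lower in dnmt3bb.2-/-. Of the lists of blood and endothelium (lmo2), heart and lateral plate (hnf1bb, nkx2.7, gata4), retinoic acid (crabp2a), Fgf signalling (spry4) and Wnt signalling (wnt8b), the members are in parentheses. Of these spry4, a feedback inhibitor, was lower in dnmt3aa-/- (-0.53, limma adjusted p = 0.00454), but another spry4 probe did not pass (-0.36, limma adjusted p = 0.0487). The members gata4 (-0.61) and nkx2.7 (-0.40) were lower in dnmt3bb.2-/-. The other genes of the heart and lateral plate list did not go the same way. Of 18 tested in dnmt3bb.2-/-, 6 were higher and 0 lower, with a median of 0.15. Of 19 tested in dnmt3aa-/-, 4 were higher and 3 lower.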

How the data were processed

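The authors deposited the Feature Extraction output (version 12.0.3.1 in the submitters' processing notes) of each array, whose processed signal is a background-subtracted intensity, and a table of normalized intensities, which are these signals times 1 factor per array (2.55 to 3.67). The deposited flags for outlier spots and for spots well above background are 0 or 1. The members were chosen from the normalized intensities on the log2 scale. The members and the gene lists were chosen with earlier results of these data known. For the tests, log2 of the scaled processed signal without control and outlier spots was averaged over the spots of a probe. Probes that exceeded the background clearly on no array of a fit were not tested. Genotypes were compared for each stage alone, and stages over the 15 arrays of a genotype, with limma 3.58.1 in R 4.3.3 (lmFit and eBayes, Benjamini-Hochberg adjustment over all probes, adjusted p of at most 0.01). The fits were tested on simulated data. Probes were named through RefSeq accessions (26421 of 43603 probes, 13633 symbols, GRCz12tu gene table). Coordinates are not printed, since the array was designed on another assembly, and promoter and protein sequences were not used here. With 3 arrays in a group, precision is limited by their number. A bound ("at least N-fold") sets the mean of the brighter group against the lowest signal called well above background on each dim array, or the probe's own signal where that is higher.

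Genes were named by a rule: the 15 members with the largest excess, up to 3 members of each list, the 4 highest and 4 lowest members past the test in each 5-somite comparison, 3 genes on each side of the threshold, other probes of these genes and the targeted genes. Further genes, among them the functional classes, were named after their values were seen. Alternatives were 75th percentile scaling, normexp background correction with an offset of 50, no filter, a floor of 32 on the signal, 1 model for the 45 arrays together, blocks by slide or by replicate number, a threshold of 0.05 and the removal of each array in turn, and for the choice of members no floor, a floor of 7 and another choice of probe.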

Additional observations from a re-analysis of the deposited data

Results flagged for a closer look

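At 5-somite 41 of 145 members tested differed between dnmt3aa-/- and dnmt3bb.2-/- in the direct test (limma, adjusted p of at most 0.01). Of all 35582 probes tested, 7289 did so. These results were singled out because the mutants' effects against the same WT arrays differ. The 4 largest differences upward (log2, dnmt3aa-/- minus dnmt3bb.2-/-) were krt95 with 4.38, si:dkey-217m5.8 with 4.07, avpr1ab with 2.99 and pde6c with 2.97. The 4 largest downward were tlr21 with -2.66, si:dkey-122c11.1 with -1.46, snai1b with -1.17 and niban1a with -1.06. In dnmt3bb.2-/- krt95 and avpr1ab were above background on 1 of 3 arrays. With the slide as a random block only si:dkey-217m5.8 of these 8 passed. For si:dkey-217m5.8 the mutant arrays read 9.45, 9.32 and 8.82 in dnmt3aa-/- and 5.01, 5.26 and 5.10 in dnmt3bb.2-/-, and 2 further probes that were above background on the 3 WT arrays gave 4.01 and 3.94. The dnmt3aa-/- and dnmt3bb.2-/- 5-somite arrays lay on different slides and were scanned on different days, so the part of slide and scan day in these differences cannot be told apart from genotype.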

How the results depend on the processing

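The members depend on the choice of scale: of the 150, 123 were chosen again with no floor, 115 with a floor of 7, 144 with another choice of probe, 129 with 75th percentile scaling, 105 with normexp and 138 to 139 without a WT replicate. The peak at 5-somite held for 113 to 131 members in dnmt3aa-/- and for 121 to 127 in dnmt3bb.2-/- over the floor, scaling and background settings, and for 126 to 132 and 121 to 123 without single replicates. Of 66 calls of named genes, 31 were lost with the replicate block, 31 in the fit over all 45 arrays and 1 with normexp, and 21 of 29 were lost with the slide as a block. Over all settings, 883 recomputed calls gave the same call in 674 cases, lost it in 209 and turned the direction in 0. Each group had 3 arrays, and the cause of the changes below was not tested. The number of all probes called changed with the setting as well. In dnmt3aa-/- against WT at 5-somite it was 7566 at first and 15233 at an adjusted p of at most 0.05. It was 1023 with the replicate block and 378 with the slide as a block.

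The numbers of members called against WT in dnmt3aa-/- at the 4 stages from shield on (10, 42, 29 and 18) were 37, 75, 54 and 37 at an adjusted p of at most 0.05. Over all probes these numbers were 10183, 15233, 14742 and 12204 (4144, 7566, 7873 and 4804 at 0.01). At the threshold of 0.05, 42 members were called in dnmt3bb.2-/- at 2 dpf (21 at 0.01) and 64 between the mutants (41). Over all probes these were 13104 (5753) and 14786 (7289). In the fit over all 45 arrays 43 members were called in dnmt3aa-/- at shield, and 50, 39 and 32 in dnmt3bb.2-/- at 1-2 cell, 5-somite and 1 dpf (33, 88 and 77). Over all probes these were 12839, and 13779, 9471 and 8006 (10043, 12712 and 17749). With normexp 7 members were called in dnmt3aa-/- at 1-2 cell (41), where the median of all probes moved from 0.02 to 0.38, and 55 were higher at 5-somite than at 1 dpf in dnmt3aa-/- (86). Over all probes these were 5784 (18596) and 2961 (5811). Normexp also changed the split of higher and lower members to 5 and 2 in dnmt3aa-/- and 25 and 9 in dnmt3bb.2-/- at 1-2 cell, to 9 and 1 in dnmt3aa-/- and 59 and 18 in dnmt3bb.2-/- at shield, and to 22 and 24 between the mutants, where it was 24 and 17. The splits before were 20 and 21, 18 and 15, 8 and 2, and 47 and 21 in that order. With normexp the splits of all probes were 3106 and 2678, 6907 and 4796, 1922 and 1817, and 12379 and 7611. Between the mutants the split of all probes with normexp was 3304 and 6380.

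Same-numbered replicates did not deviate together at 5-somite, where the correlations lay between -0.04 and 0.07, so the replicate numbers do not pair the arrays of that stage. At 1-2 cell the correlations of dnmt3aa-/- and WT were 0.25, 0.12 and 0.10, and whether the numbers pair these arrays was not tested. In the remaining comparisons with WT they lay between -0.06 and 0.03. With the replicate number as a block 2, 9, 5 and 0 members were called in dnmt3aa-/- at the 4 stages from shield on, 18, 57 and 4 in dnmt3bb.2-/- at 1-2 cell, 5-somite and 2 dpf, and 6 between the mutants. Over all probes these were 651, 1023, 1071 and 354, then 3701, 7940 and 1610, and 1217. With the slide as a block 17 and 5 members were called in dnmt3aa-/- at shield and 5-somite, 20 and 5 in dnmt3bb.2-/- at 1-2 cell and 2 dpf, 3 between the mutants, and 52 were higher at 5-somite than at 1 dpf in dnmt3aa-/-. Over all probes these were 6429 and 378, then 5633 and 1289, 800, and 4127.

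Without single arrays, 33 to 43, 1 to 19, 11 to 87, 12 to 81 and 3 to 30 members were called in dnmt3aa-/- from 1-2 cell to 2 dpf, 19 to 47, 59 to 65, 62 to 76, 54 to 76 and 7 to 19 in dnmt3bb.2-/-, and 12 to 72 between the mutants. Over all probes the ranges in dnmt3aa-/- were 14259 to 19934, 861 to 5276, 1932 to 13819, 2410 to 16170 and 1169 to 6532. In dnmt3bb.2-/- they were 5071 to 14619, 13654 to 14266, 8357 to 11613, 13431 to 15534 and 2163 to 4340. Between the mutants the range was 2127 to 12069. The members called higher at 5-somite than at shield were 98 to 106 in dnmt3aa-/- and 113 to 114 in dnmt3bb.2-/-, and than at 1 dpf 63 to 76 and 106 to 109. Over all probes these were 10076 to 11354 and 13077 to 13280, and 4400 to 5409 and 9898 to 10126.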
